A study of Homo sapiens with 6 samples.

Results

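The secreted Wnt antagonists were examined in the human endometrial cancer line AN3CA, with and without knockdown (KD) of *PAX2*. They comprised 10 genes matched by symbol: *SFRP1*, *SFRP2*, *SFRP4*, *SFRP5*, *FRZB*, *DKK1*, *DKK2*, *DKK3*, *DKK4* and *WIF1*. Of these, 8 were among the 17471 genes with values. *SFRP4* and *DKK4* were not among them, so their expression is not analysed here. The genes were chosen with the *SFRP1* difference between these same libraries already known, so their fold changes are given as descriptions without a test.

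RNA-seq was analysed from 6 libraries in 2 groups of 3. The shEV cells, labelled wild type, carried an empty hairpin vector. The shPAX2 cells, labelled *PAX2* KD, carried a vector encoding 1 hairpin against *PAX2*, a developmental transcription factor. Both groups were transduced by lentivirus and selected with puromycin, in the same serum-containing medium. The methods do not say whether the cells were kept as pools or as clones. No second hairpin and no rescue was included in these libraries, and the labels do not say whether the replicates came from separate cultures.

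Wnt ligands bind a Frizzled receptor and an LRP5 or LRP6 co-receptor, and this stops the destruction complex from degrading beta-catenin, which then drives transcription with TCF/LEF factors. Secreted antagonists act outside the cell by 2 routes. The SFRP proteins, including *FRZB*, share a Frizzled-like cysteine-rich domain, and together with *WIF1* they bind Wnt ligands. *DKK1*, *DKK2* and *DKK4* instead occupy LRP5 and LRP6, helped by Kremen proteins, while *DKK3* is a divergent member whose action on Wnt is less settled. In the endometrium, Wnt signalling takes part in the growth and patterning of the epithelium, and *DKK1* is known as a progesterone-responsive product of the stroma.

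Values are TPM, a unit of relative abundance that corrects for gene length and depth, so levels can be compared between genes. Depth ran from 10730909 to 18221859 reads per shEV library and was greater, 19422615 to 29405787 reads, in each shPAX2 library. The shEV libraries 1 to 3 held *PAX2* at 4.03, 3.66 and 2.74 TPM, and the shPAX2 libraries at 0.916, 0.723 and 1.17 TPM. The groups did not overlap, and *PAX2* fell by 1.47 on the log2(TPM + 0.5) scale (SE 0.18, limma adjusted p = 0.000294), which left 26.9% of the shEV mean. The labels call the cells epithelial, but of 8 epithelial markers 7 were listed and only *KRT18* had a mean of at least 0.5 TPM. *EPCAM* was at most 0.387 TPM, *CDH1* at most 0.0851 TPM, and *KRT7* and *KRT19* were at 0 in every shEV library. The summed level of the epithelial list was 10.9 to 13.3 TPM in shEV and 12.3 to 18.0 TPM in shPAX2. Of 9 mesenchymal markers 7 were listed and 5 had a mean of at least 0.5 TPM. *CDH2* was at most 0.0777 TPM and *PDGFRA* at most 0.31 TPM. *COL1A1* averaged 1.02 and 0.888 TPM in shEV and shPAX2, and *PDGFRB* 1.04 and 0.724 TPM. The mesenchymal list, dominated by *VIM*, summed to 4900 to 5300 TPM in shEV and 4360 to 4560 TPM in shPAX2. Within it 2 collagen genes moved in opposite directions, *COL1A2* from 836 to 390 TPM (log2 fold change -1.11, limma adjusted p = 1.75e-05) and *COL3A1* from 35.1 to 242 TPM (log2 fold change 2.79, limma adjusted p = 0.000122). The part of these changes in the antagonist values was not tested. Immune markers summed to at most 2.28 TPM, nearly all of it *CD68*, and endothelial markers to at most 0.0611 TPM. In bulk RNA, fewer cells that express a gene and less RNA per cell cannot be told apart.

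*SFRP1*, which binds Wnt ligands before they reach their receptors, was the most abundant antagonist in control cells and nearly disappeared in the KD cells. The shEV libraries 1 to 3 held it at 235, 235 and 260 TPM, with 5639, 9278 and 10497 reads behind these values. The shPAX2 libraries held 2.0, 2.19 and 2.32 TPM, with only 137, 132 and 101 reads. The 3 shPAX2 libraries lay close together, and the lowest shEV library was 101 times the highest shPAX2 library.

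Averaged over 3 libraries each (± SD), *SFRP1* was 243 ± 14.5 TPM with the empty vector and 2.17 ± 0.158 TPM with the hairpin, a ratio of 112. KD cells therefore held 0.892% of the control level. The log2 fold change was -6.51 (SE 0.07). It was the lowest of all 13163 genes tested, those with at least 0.5 TPM in at least 3 libraries, and the next lowest was *ANXA1* at -4.54. Ranked by TPM within a library, *SFRP1* was gene 563, 556 and 490 in the shEV libraries and gene 11606, 11469 and 11391 in the shPAX2 libraries. The residual was still counted from 370 reads, and its coefficient of variation of 7.26% was below the 9.95% that counting alone gives for the library with fewest *SFRP1* reads. All 3 residual values stood well above the level of 3 reads.

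*SFRP1* lies on chromosome 8 from 41119481 to 41166992 on the minus strand (GRCh37). The microRNA gene *MIR548AO* is annotated within it on the same strand, so reads there could have been assigned to either gene. Its shEV reads were 2, 15 and 7 and its shPAX2 reads 10, 4 and 8, with overlapping groups and a log2 fold change of -0.53 (SE 0.71, limma adjusted p = 0.595). These are few reads beside the 25414 of *SFRP1* in shEV.

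**Figure D1:**
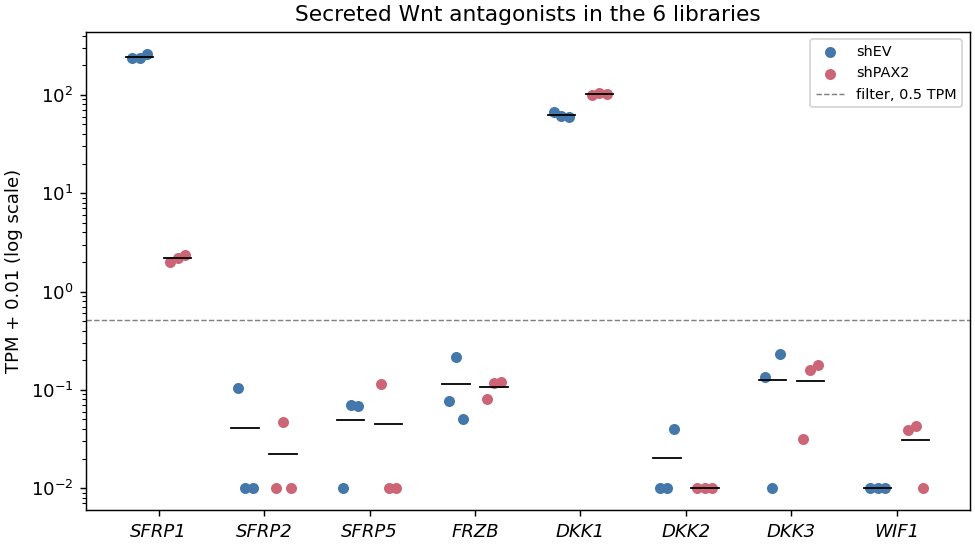
TPM + 0.01 on a log axis for the 8 listed antagonists in 3 shEV and 3 shPAX2 libraries, with points for libraries, black lines for group means and a dashed line at the 0.5 TPM filter. *SFRP1* lies at 235 to 260 TPM in shEV and 2.0 to 2.32 TPM in shPAX2, *DKK1* lies higher in shPAX2, and the 6 others stay at or below 0.222 TPM.

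*DKK1*, which blocks the LRP5 and LRP6 co-receptors, was the only other antagonist above the filter and differed in the opposite direction. The shEV libraries held *DKK1* at 67.2, 60.6 and 59.8 TPM, with 651, 966 and 975 reads. The shPAX2 libraries held it at 98.8, 104 and 102 TPM, with 2730, 2536 and 1793 reads. All shPAX2 libraries lay above all shEV libraries, and the lowest of the former was 1.47 times the highest of the latter.

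Over 3 libraries each, *DKK1* averaged 62.5 ± 4.05 TPM (SD) with the empty vector and 102 ± 2.71 TPM with the hairpin, a ratio of 1.63. The log2 fold change was 0.70 (SE 0.06), higher than in 96.8% of genes tested. Within a library, *DKK1* moved from rank 2433, 2655 and 2771 by TPM in shEV to rank 1533, 1534 and 1587 in shPAX2. *DKK1* lies on chromosome 10 from 54074041 to 54077802 on the plus strand (GRCh37), 48.4 Mb from *PAX2*. The antisense gene *PRKG1-AS1* overlaps its start on the opposite strand. It had at most 35 reads in a library and a log2 fold change of 0.17 (limma adjusted p = 0.509), and the strand setting of the counting is not given in the sources used here.

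The promoters of *DKK1* and *SFRP5* are shown because they place an abundant antagonist beside a silent one on the same chromosome. Both are from RefSeq (GRCh38.p14), 250 bases before to 50 bases after the annotated start, 5′ to 3′ on the strand of the gene. *DKK1* is at chr10:52314031-52314330 on the plus strand and *SFRP5* at chr10:97771950-97772249 on the minus strand. Capitals mark the TCF/LEF core CTTTGA or its reverse complement TCAAAG.
DKK1: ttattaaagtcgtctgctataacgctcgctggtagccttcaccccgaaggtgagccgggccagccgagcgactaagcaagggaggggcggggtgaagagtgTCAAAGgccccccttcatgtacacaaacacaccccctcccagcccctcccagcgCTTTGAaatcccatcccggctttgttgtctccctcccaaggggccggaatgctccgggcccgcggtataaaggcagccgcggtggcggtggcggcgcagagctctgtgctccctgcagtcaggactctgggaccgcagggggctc
SFRP5: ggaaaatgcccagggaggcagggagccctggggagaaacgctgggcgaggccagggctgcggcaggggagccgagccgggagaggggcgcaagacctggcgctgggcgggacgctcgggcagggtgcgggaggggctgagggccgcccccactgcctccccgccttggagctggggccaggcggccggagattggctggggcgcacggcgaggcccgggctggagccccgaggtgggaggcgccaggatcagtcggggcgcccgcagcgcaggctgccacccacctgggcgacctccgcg

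The *DKK1* window held the TCF/LEF core once in each orientation, with first bases 149 and 95 bases before the start. The *SFRP5* window did not hold these letters. Of the 35116 RefSeq promoter windows of the same length, 12.9% held the core on either strand. Among the 6 member promoters searched (*FRZB*, *SFRP2*, *SFRP4*, *DKK1*, *SFRP5* and *WIF1*), only that of *DKK1* did. The *SFRP1* promoter was not among these 6 and is not described here. A paired-domain core, GTCACGC or its reverse complement GCGTGAC, was in 2.52% of all windows and in 0 of these 6. The same 6 windows held 15 to 29 CpG dinucleotides, against a median of 14 over all windows, with 28 in *SFRP5* and 20 in *DKK1*. A match describes letters in a window, and no binding or methylation was measured in these libraries.

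The 6 remaining listed antagonists were at or near the counting limit in both groups. None had more than 6 reads in a library or more than 0.222 TPM, and together they gave 19 reads in shEV and 28 in the deeper shPAX2 libraries. For these genes 3 reads correspond to 0.0539 to 0.297 TPM, depending on gene length and library, so differences between groups were not detectable at this depth. None passed the filter on low values. Reads carry no molecular identifiers, so these limits cover counting error only.

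Among the SFRP family, *FRZB* (chromosome 2), a ligand-binding antagonist named for its role in cartilage and bone, had shEV reads of 1, 5 and 1 and shPAX2 reads of 3, 4 and 3. *SFRP2* (chromosome 4) had shEV reads of 1, 0 and 0 and shPAX2 reads of 0, 1 and 0. *SFRP5* (chromosome 10, 2.96 Mb from *PAX2*) had shEV reads of 0, 1 and 1 and shPAX2 reads of 3, 0 and 0. These 3 close relatives of *SFRP1* therefore gave 24 reads in all 6 libraries, and none was detected at a level near the *SFRP1* level in control cells.

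Among the other antagonists, *DKK3* (chromosome 11) had shEV reads of 2, 0 and 6 and shPAX2 reads of 1, 6 and 5. *DKK2* (chromosome 4), an LRP6 ligand, had a single read, in shEV replicate 3. *WIF1* (chromosome 12), which sequesters Wnt ligands through its WIF domain, had no shEV read and shPAX2 reads of 1, 1 and 0. The read pattern of each gene overlapped between groups.

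The composition of the antagonist transcripts differed between the groups. The sums and shares below, and the ratio after them, largely restate the *SFRP1* difference known when the members were chosen. The 8 listed members summed to 303, 296 and 320 TPM in shEV and to 101, 107 and 104 TPM in shPAX2. The mean sum of 306 ± 12.7 TPM with the empty vector was 2.94 times the 104 ± 2.86 TPM with the hairpin (SD, n = 3 each), with no overlap. *SFRP1* made up 77.7%, 79.4% and 81.2% of the sum in shEV and 1.98%, 2.05% and 2.22% in shPAX2. *DKK1* made up 22.2%, 20.5% and 18.7% in shEV and 97.8%, 97.6% and 97.5% in shPAX2. The 6 others together summed to 0.301 ± 0.0454 TPM in shEV and 0.278 ± 0.0504 TPM in shPAX2.

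The ratio of *SFRP1* to *DKK1* does not depend on how libraries are scaled against each other. It was 3.50, 3.88 and 4.35 in shEV and 0.0203, 0.0210 and 0.0228 in shPAX2. Control cells thus held 3.91 ± 0.426 *SFRP1* transcripts per *DKK1* transcript, and KD cells 0.0214 ± 0.00127 (SD, n = 3 each). Of the 2 detected antagonists, the ligand-binding one was the more abundant in shEV and the co-receptor-binding one in shPAX2.

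**Figure D2:**
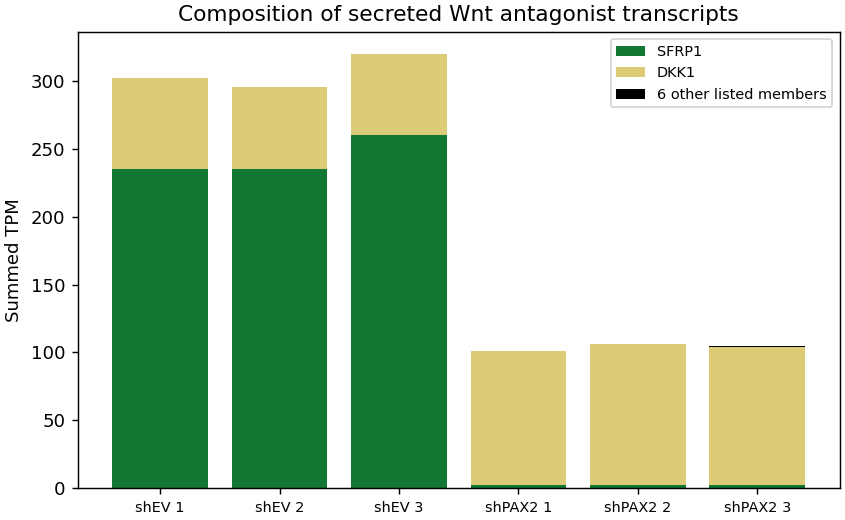
Stacked bars from 0 give the summed TPM of the listed antagonists in each of the 6 libraries, split into *SFRP1*, *DKK1* and the 6 others. The sum goes from 296 to 320 TPM in shEV to 101 to 107 TPM in shPAX2, and nearly all of the shPAX2 bar is *DKK1*.

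To place the members among all genes, a call in limma needed both an adjusted p under 0.05 and a change of at least 1 on the log2 scale in either direction. It was met by 598 of 13163 genes (4.54%), with 410 lower (3.11%) and 188 higher (1.43%) in shPAX2. At an adjusted p under 0.05 alone, 30.5% of genes were lower and 12.2% higher. The first count included *SFRP1* and the second also *DKK1*. The groups did not overlap in 54.9% of genes tested, so the separation of *SFRP1* and *DKK1* between groups was common to most genes. The members were chosen with this contrast known, so their place in these counts is a description and no test.

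The median log2 fold change of all genes tested was -0.10 on the TPM scale and 0.00 after median-of-ratios scaling or quantile normalization. Relative to that shift, *SFRP1* stayed far below the other genes, at -6.42 under median-of-ratios scaling. *DKK1* stayed above the median, at 0.80 under the same scaling. Quantile normalization changed the balance of all calls to 240 higher and 293 lower.

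**Figure D3:**
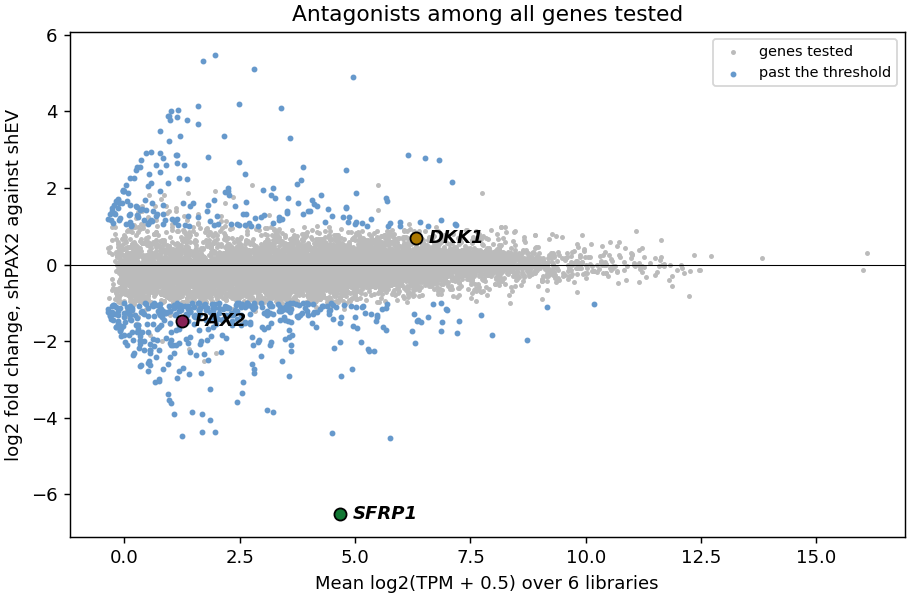
Log2 fold change of shPAX2 against shEV by mean log2(TPM + 0.5) over the 6 libraries, 1 point per gene tested, with genes past the adjusted p and fold threshold in blue. *SFRP1* at -6.51 is the lowest point of 13163, *DKK1* lies at 0.70 and *PAX2* at -1.47.

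The 5 genes whose profile over the 6 libraries lay nearest to that of *SFRP1*, by Euclidean distance of centred log2(TPM + 0.5) values, were *MIR548AA1*, *CAMK4*, *ANXA1*, *CTGF* and *KITLG*, at distances of 2.58 to 3.01. All 5 were lower in every shPAX2 library than in any shEV library. They were chosen by likeness to *SFRP1*, so this direction was set by the choice. *MIR548AA1*, *CAMK4* and *KITLG* also reached the filter only through their shEV libraries. *KITLG*, which encodes the ligand of the KIT receptor, averaged 14.3 ± 0.695 TPM with the empty vector and 0.385 ± 0.00941 TPM with the hairpin (SD, n = 3 each). *CAMK4*, a calcium/calmodulin-dependent kinase, stood at 14.2 ± 0.914 and 0.210 ± 0.110 TPM. *ANXA1*, a phospholipid-binding protein, stood at 265 ± 52.9 and 11.7 ± 5.17 TPM, with more spread between libraries than *SFRP1*. *CTGF*, a matricellular protein gene, stood at 18.0 ± 6.57 and 0.377 ± 0.232 TPM. *MIR548AA1* rested on 3, 5 and 3 reads in shEV and 0 in shPAX2, close to the counting limit. Apart from *MIR548AA1*, whose shPAX2 reads were all 0, their log2 fold changes ran from -4.54 to -4.06, smaller in size than that of *SFRP1*.

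None of the genes around *SFRP1* differed by a comparable amount. No other gene tested did, since the next lowest of all was *ANXA1* at -4.54. Within 1 Mb of *SFRP1*, 10 other genes were listed and 8 were tested, and none was called, against 4.54% of all genes. None among 8 is near that share. The log2 fold changes of these 8 ran from -0.53 to -0.10, with a median of -0.18. The lowest was *MIR548AO* (SE 0.71), which lies within *SFRP1* and had few reads. Those outside *SFRP1* ran from -0.23 to -0.10. The nearest tested gene on the right, *GOLGA7*, averaged 65.5 ± 1.48 and 57.3 ± 2.99 TPM in shEV and shPAX2 (SD, n = 3 each), with a log2 fold change of -0.19 (SE 0.06, limma adjusted p = 0.0292). The nearest tested gene on the left, *ADAM32*, lay 1.98 Mb away and was low, at 0.506 ± 0.0999 and 0.437 ± 0.152 TPM (log2 fold change -0.11, limma adjusted p = 0.681).

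Around *DKK1*, 4 genes within 1 Mb were tested and none was called, against 4.54% of all genes. The log2 fold changes of these 4 ran from -0.94 to 0.20. *PRKG1*, the cGMP-dependent kinase gene that ends upstream of *DKK1*, was lower, at 41.1 ± 5.09 and 21.3 ± 3.56 TPM in shEV and shPAX2 (SD, n = 3 each, limma adjusted p = 0.00106). It was named after its values were seen. *DKK1* and its closest listed protein-coding neighbour on that side thus differed in opposite directions.

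**Figure D4:**
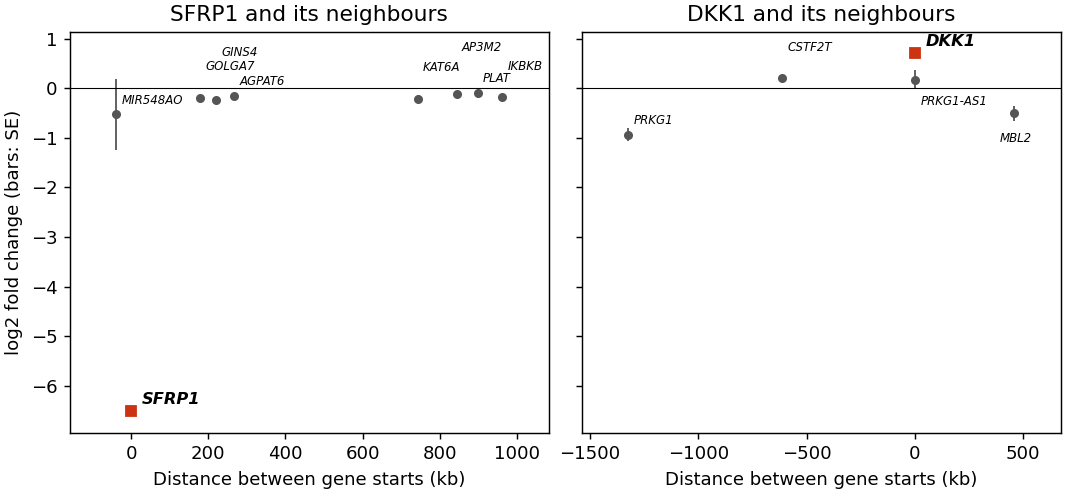
Log2 fold change of shPAX2 against shEV (points, with SE bars) by distance between gene starts in kb, for tested genes within 1 Mb of *SFRP1* (left) and *DKK1* (right), with the antagonist as a red square. The 8 genes near or within *SFRP1* lie between -0.53 and -0.10 while *SFRP1* lies at -6.51. The lowest of the 8 is *MIR548AO*, which lies within *SFRP1*.

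The rest of the pathway was read from 8 lists of Wnt genes that held 84 genes, of which 69 were listed and 43 tested. In all, 1 was called higher and 3 lower. At an adjusted p under 0.05 alone, 3 were higher and 20 lower (6.98% and 46.5% of those tested). The lower genes include *WNT9A*, also called, and *AXIN2*, which reached the filter only through shEV libraries and so had to be lower. Over all genes tested, 1.43% were called higher and 3.11% lower, and 12.2% were higher and 30.5% lower at the adjusted p alone. Their median log2 fold change was -0.25, against -0.10 for all genes tested. The count of lower genes moved with scaling, to 14 under median-of-ratios scaling and 16 under quantile normalization, with 5 and 4 higher. Over all genes, the lower count moved from 4017 to 2626 and 2489 in the same settings.

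Few Wnt ligands, the molecules that *SFRP1* and *WIF1* bind, were expressed. Of 19 ligand genes 13 were listed and 3 tested. *WNT9A* stood at 1.35, 1.46 and 0.804 TPM in shEV and 0.105, 0 and 0 TPM in shPAX2, from 9, 16 and 9 reads and 2, 0 and 0 reads. *WNT9A* reached the filter only through its 3 shEV libraries, so it had to differ, and it was no longer tested when any shEV library was left out. Its fitted log2 fold change of -1.66 (SE 0.22) ran from -4.32 to -1.08 over the alternatives in which it was tested, and it was at least 6.18-fold lower with 3 reads set in each shPAX2 library. *WNT10B* rose from 2.36 ± 0.360 to 3.97 ± 0.773 TPM (SD, n = 3 each; log2 fold change 0.64, SE 0.16, limma adjusted p = 0.012, and 0.00343 to 0.0542 over the alternatives). Of the 2 ligand secretion genes 1 was tested, *PORCN*, which lipidates Wnt proteins, at 13.3 ± 1.62 and 10.7 ± 1.33 TPM (limma adjusted p = 0.0574).

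Of 16 receptors and co-receptors 12 were tested, and 1 was called higher and 1 lower. *FZD7*, a Frizzled receptor, stood at 15.8, 15.8 and 19.1 TPM in shEV and 36.5, 44.4 and 39.5 TPM in shPAX2, and rose by a log2 fold change of 1.23 (SE 0.10, limma adjusted p = 2.64e-05). *ROR1*, a receptor tyrosine kinase of non-canonical Wnt signalling, stood at 3.63, 3.48 and 4.36 TPM in shEV and 1.01, 1.07 and 1.06 TPM in shPAX2, and fell by 1.48 on the log2 scale (SE 0.13, limma adjusted p = 5.34e-05). The groups did not overlap for either gene. At an adjusted p alone 2 receptors were higher and 8 lower, with a list median of -0.37, where 12.2% of all genes were higher and 30.5% lower. The lower count was 6 under median-of-ratios scaling or voom. The second higher receptor was *PTK7*, a pseudokinase co-receptor named after its values were seen, at 54.3 and 88.6 TPM (log2 fold change 0.70, limma adjusted p = 3.37e-05). It lies on chromosome 6, where the median log2 fold change over 634 tested genes was 0.39, compared with -0.11 on the other chromosomes, and the part of that shift in the *PTK7* value was not tested. *RYK*, the most abundant receptor by the mean over all 6 libraries, went from 86.8 ± 7.30 to 72.4 ± 4.75 TPM (SD, n = 3 each, limma adjusted p = 0.025), which became 0.12 under median-of-ratios scaling.

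Of the receptors that *DKK1* acts on, *LRP5*, *LRP6* and *KREMEN2* were lower and *KREMEN1* did not pass the test. At an adjusted p under 0.05, 30.5% of all genes tested were lower. The co-receptors *LRP5* and *LRP6*, named here as the *DKK1* targets after their values were seen, fell from 23 ± 1.19 to 16.3 ± 1.29 TPM and from 23 ± 1.62 to 18.2 ± 0.272 TPM (SD, n = 3 each; log2 fold changes -0.48 and -0.33, limma adjusted p = 0.00128 and 0.00465). The median of all genes tested was -0.1 on the same scale. Under median-of-ratios scaling *LRP5* stood at -0.38 (limma adjusted p = 0.00561), and the *LRP6* value is not given here. *KREMEN2*, which forms a complex with *DKK1* and LRP6, stood at 13.1, 13.6 and 10.4 TPM in shEV and 5.34, 5.34 and 3.99 TPM in shPAX2. It fell by 1.26 on the log2 scale (SE 0.14, limma adjusted p = 0.000163), while its homologue *KREMEN1* stood at 3.66 and 3.94 TPM (limma adjusted p = 0.526). *DKK1* and *KREMEN2* therefore differed in opposite directions.

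Among the other extracellular regulators, 2 of 9 genes of the R-spondin axis were tested. *LGR4*, an R-spondin receptor, fell from 12.7 ± 0.698 to 9.35 ± 0.705 TPM (SD, n = 3 each; log2 fold change -0.42, limma adjusted p = 0.00367). Under quantile normalization its log2 fold change was -0.22 (limma adjusted p = 0.0482). The other gene tested, *ZNRF3*, named after its values were seen, stood at 4.94 and 4.84 TPM (limma adjusted p = 0.83). At an adjusted p under 0.05, 30.5% of all genes tested were lower. Of 10 other extracellular inhibitors 2 were tested and none passed. *SOSTDC1*, which binds BMPs and LRP co-receptors, stood at 8.77, 15.0 and 16.6 TPM in shEV and 17.2, 26.8 and 28.5 TPM in shPAX2. The lowest shPAX2 library was only just above the highest shEV library, and the log2 fold change was 0.84 (SE 0.33, limma adjusted p = 0.10).

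Inside the cell, 17 of 19 genes of the beta-catenin machinery were tested, none was called, and 6 were lower at an adjusted p under 0.05 alone. That is 35.3%, near the 30.5% of all genes. It became 3 lower and 2 higher under median-of-ratios scaling, and 3 lower under quantile normalization. *CTNNB1*, which encodes beta-catenin, stood at 359 ± 18.1 and 333 ± 14.7 TPM (SD, n = 3 each, limma adjusted p = 0.189). Of 12 beta-catenin target genes 6 were tested, none was called and 4 were lower at an adjusted p alone, against 30.5% of all genes. This became 2 under median-of-ratios scaling and 3 under quantile normalization, while voom on the recovered reads kept 4 lower and called 2 of them. *MYC*, the most abundant of them, went from 86.5 ± 9.64 to 67.5 ± 5.03 TPM (limma adjusted p = 0.0136, and 0.059 under median-of-ratios scaling). *AXIN2*, a feedback inhibitor of the pathway named after its values were seen, stood at 0.704, 0.856 and 1.07 TPM in shEV and 0.293, 0.316 and 0.363 TPM in shPAX2. It reached the filter only through the shEV libraries, so it had to be lower, and its difference is given as values. Each count of lower target genes above includes *AXIN2*, as do the 2 that voom called. No target gene tested was higher at an adjusted p under 0.05, against 12.2% of all genes. With 6 genes tested, none is near that share.

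**Figure D5:**
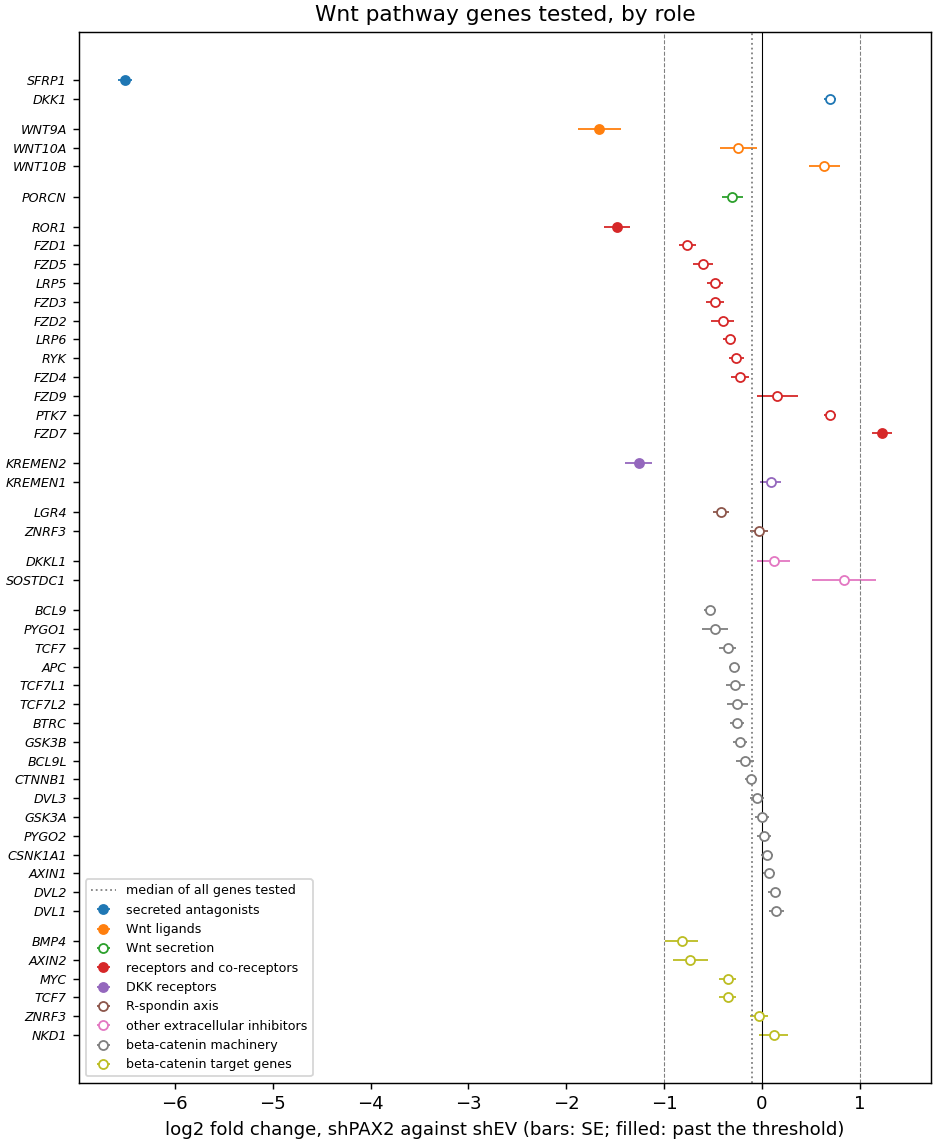
Log2 fold change of shPAX2 against shEV with SE bars for the 2 tested antagonists and the tested Wnt pathway genes, grouped by role, with filled points for genes past the adjusted p and fold threshold, dashed lines at -1 and 1 and a dotted line at the median of all genes. *SFRP1* at -6.51 lies far from every other gene, the next lowest being *WNT9A* at -1.66, and *FZD7* at 1.23 is the highest.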

How the data were processed

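The authors deposited TPM values for 17471 genes in 6 libraries of stranded total RNA, per the labels. The submitters' processing notes name hg19 (GRCh37), bcl2fastq, STAR, Subread, featureCounts and edgeR, with no versions, and the strand setting of counting is not given in the sources used here. The labels and the methods on transduction give an empty vector as the AN3CA control, and other methods and the text call it scrambled.

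Within each gene, ratios of TPM between libraries were ratios of whole numbers (tolerance 1e-06) for 100.0% of genes, so whole reads were recovered, up to a factor common to a gene. They gave depths of 10730909 to 29405787 reads.

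The 13163 genes that reached a TPM of 0.5 in 3 or more libraries were tested with limma 3.58.1 in R 4.3.3 on log2(TPM + 0.5), using lmFit and eBayes with the trend and robust options. The contrast was shPAX2 minus shEV, two-sided, 3 libraries each, with Benjamini-Hochberg adjustment over all genes. The scale understates changes of low genes. A call needed both an adjusted p under 0.05 and a change of at least 1 on that scale. Where replicates are technical, p-values measure only that spread. The fit was tested on simulated data. Alternatives covered pseudocount, filter, scaling, moderation, a replicate block, voom on recovered reads, the fold threshold and leaving out each library.

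The members, gene lists and naming rule were chosen with earlier results of these data known. Beside the 10 members and *PAX2*, the rule named the called genes (up to 4) and the most abundant gene of each Wnt list, the 5 genes with the profile nearest to *SFRP1*, and the nearest tested neighbours. Positions come from GENCODE release 44 on GRCh37, with 94.7% of genes matched, and promoters from RefSeq.

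Over the genes tested, same-numbered replicates did not deviate together (correlations of deviations from group means -0.0523, 0.0815 and 0.0014). The main fit therefore used no replicate block, though such correlations cannot exclude a pairing.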

Additional observations from a re-analysis of the deposited data

How the results depend on the processing

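The *SFRP1* log2 fold change of -6.51 was -6.75 with a pseudocount of 0.1 and -6.27 with 1, -6.42 under median-of-ratios scaling, -6.41 under quantile normalization and -6.71 with voom on the recovered reads, and ran from -6.55 to -6.46 when 1 library was left out. That of *DKK1* (0.70) was 0.80 under median-of-ratios scaling and 0.82 with voom, and ran from 0.67 to 0.75 with 1 library left out. Without the fold threshold, 5629 genes were called in place of 598, 2 antagonists in place of 1 and 23 Wnt pathway genes in place of 4, because the rule is looser. Wnt pathway calls numbered 6 with a pseudocount of 0.1 or with voom, and 3 with a filter at a TPM of 1 or without any 1 shEV library, where *WNT9A* was not tested. All genes called numbered 484 to 610 with 1 library left out, and the higher ones fell from 188 to 100 without shPAX2 replicate 2 and to 104 without shPAX2 replicate 3. The cause was not tested. *PAX2* stayed called, from -1.79 to -1.20, under every alternative run. With the replicate block, 588 genes were called, *SFRP1* stood at -6.51 and *DKK1* at 0.70. The labels do not say that the numbers 1 to 3 pair the samples. The adjusted p of *SOSTDC1* ran from 0.000372 (replicate block) to 0.258 over the alternatives.

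The main limits are 3 libraries per group, 1 hairpin, and depth that was higher in every shPAX2 library, so depth and group cannot be told apart. The groups also differed along chromosome 6, with a median log2 fold change of 0.39, against -0.11 on the other chromosomes. The part of that shift in the antagonist values was not tested. The 6 antagonists near 0 reads could not be compared.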
